A study of Mus musculus with 3 samples.

Results

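Saa3, Hp, Lcn2, Prtn3 and Plac8 encode proteins of the acute phase response and of antimicrobial defence, and their transcripts were followed in immune cells of the mouse intestinal muscularis externa. They are 5 of the 14148 genes in the count tables. They were chosen by their measured levels, since earlier tables of the same counts showed them high in particular immune cells and time points, so their levels by cell type and time are given as a description, without a test. The data come from single-cell RNA sequencing (10x Genomics 3′ chemistry) of sorted CD45+ leukocytes from the small intestinal muscularis of wild-type C57BL/6J mice aged 12 weeks. There were 3 libraries, from naïve mice and from mice 24 h or 72 h after intestinal manipulation (IM), in which the exposed small bowel is stroked to provoke muscularis inflammation. Each library pooled cells of several mice and was the only one of its time point, so an effect of time cannot be told apart from one of the library, and all intervals below are 95% intervals that cover counting error only.

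The naïve library held 652 cells and 1865221 UMIs (unique molecular identifiers, each counting 1 captured transcript), the 24 h library 2211 cells and 10542346 UMIs and the 72 h library 1239 cells and 5246731 UMIs. The median cell had 2134, 4669 and 3295 UMIs. Each pair of libraries shared 1 cell barcode. Cells were clustered without the 5 genes and without the genes of the related pathways, and clusters were named by markers, each name standing for "like". The monocyte/macrophage (Mφ) class had 139, 1547 and 578 cells in the naïve, 24 h and 72 h libraries and the neutrophil class 12, 380 and 102. A cluster led by Ptgs2 and Siglecf (15, 58 and 212 cells) carried neutrophil and eosinophil markers together and stayed unnamed. Levels are CPM, the gene's UMIs over all UMIs of the group's cells, scaled to 1000000, and since 3′ counts are not scaled by length they are compared between groups, not between genes.

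Serum amyloid A proteins and haptoglobin are acute phase proteins, released mostly by the liver in response to IL-6, IL-1β and TNF. Saa3 is the serum amyloid A gene of the mouse that is known for its expression outside the liver, in macrophages among other cells, and haptoglobin (Hp) binds free haemoglobin for uptake through CD163. Lipocalin 2 (Lcn2) withholds iron from bacteria by binding their siderophores, and together with Hp it is stored in the granules of neutrophils. Prtn3 encodes proteinase 3, a serine protease that myeloid precursors load into primary granules next to neutrophil elastase. Plac8 encodes a small cysteine-rich protein abundant in monocytes and several lymphoid and dendritic cells.

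In GRCm38 with the GENCODE M21 annotation, Saa3 lies at chr7:46711998-46715700 and Hp at chr8:109575128-109579172, both on the minus strand. Lcn2 lies at chr2:32384633-32388252 and Plac8 at chr5:100553725-100572245, also on the minus strand. Prtn3 lies at chr10:79874476-79883174 on the plus strand, beside the elastase gene Elane at chr10:79886247-79888215. The reads fall at the 3′ ends of these genes, so the counts do not bear on which start was used. The 250 bases before the RefSeq start are shown for Saa3, Lcn2, Prtn3 and Plac8, 5′ to 3′ on the gene's strand (RefSeq, GRCm38.p6), to set the letters before the starts of the members side by side. The windows are chr7:46715677-46715926 for Saa3, chr2:32387740-32387989 for Lcn2, chr10:79879417-79879666 for Prtn3 and chr5:100572206-100572455 for the distal of the 2 Plac8 starts. Capitals mark a match to a motif searched on both strands.
Saa3: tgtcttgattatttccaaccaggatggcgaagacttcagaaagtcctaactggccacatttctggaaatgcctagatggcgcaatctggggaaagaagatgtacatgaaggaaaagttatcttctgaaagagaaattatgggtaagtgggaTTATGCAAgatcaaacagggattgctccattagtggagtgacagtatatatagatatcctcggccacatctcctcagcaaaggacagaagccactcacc
Lcn2: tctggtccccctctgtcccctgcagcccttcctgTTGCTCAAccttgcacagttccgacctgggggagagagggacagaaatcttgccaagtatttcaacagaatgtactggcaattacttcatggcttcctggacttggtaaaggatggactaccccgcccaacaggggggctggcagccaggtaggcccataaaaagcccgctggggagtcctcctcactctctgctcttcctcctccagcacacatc
Prtn3: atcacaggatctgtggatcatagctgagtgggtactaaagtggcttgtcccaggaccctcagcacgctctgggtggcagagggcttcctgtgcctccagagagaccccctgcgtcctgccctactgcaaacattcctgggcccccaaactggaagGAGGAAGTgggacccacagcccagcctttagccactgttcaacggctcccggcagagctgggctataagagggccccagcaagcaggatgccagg
Plac8: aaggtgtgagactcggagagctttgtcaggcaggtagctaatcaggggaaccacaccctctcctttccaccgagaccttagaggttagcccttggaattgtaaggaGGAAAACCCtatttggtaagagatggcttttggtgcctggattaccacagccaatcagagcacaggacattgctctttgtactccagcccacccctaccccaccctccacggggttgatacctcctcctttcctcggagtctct

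Saa3 and Lcn2 each held 1 match to the C/EBP letters TTGCNNAA, at 99 to 92 and 216 to 209 bases before the start, the Saa3 match on the opposite strand. C/EBP factors are transcription factors of myeloid and liver acute phase genes, and 9.56% of 32851 RefSeq windows of this length held these letters. The Prtn3 window held the PU.1 letters GAGGAAGT 95 to 88 bases before the start, as did 2.44% of all windows. In Plac8 the marked stretch matched the NF-kB letters GGGNNTTNC on the opposite strand, 144 to 136 bases before the start, as did 13% of all windows. The window before the second Plac8 start, chr5:100563097-100563346, held the C/EBP letters 12 to 5 bases before it. The STAT letters TTCNNNGAA, found in 7.02% of windows, were not in these 5 windows. These matches describe letters, not bound sites.

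Across the 3 libraries together, monocyte/Mφ-like cells held 71.5% of all UMIs, and 96.2% of those of Saa3, 93.5% of Prtn3, 88.1% of Plac8, 75.8% of Hp and 60.7% of Lcn2. Saa3, Prtn3 and Plac8 were thus above the class's share of all UMIs, Hp was near it and Lcn2 below it. Neutrophil-like cells, with 2.98% of all UMIs, held 37.3% of the Lcn2 UMIs and 18.6% of the Hp UMIs, and dendritic cell (DC)-like cells held 7.86% of the Plac8 UMIs. The pooled shares follow the large 24 h library. At 72 h neutrophil-like cells held 72.7% of the Lcn2 UMIs and monocyte/Mφ-like cells 16.4%, and the 5 Lcn2 UMIs of the naïve library were all in neutrophil-like cells. Of the naïve Plac8 UMIs, 36.5% were in B cell-like and 33.3% in monocyte/Mφ-like cells.

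**Figure D1:**
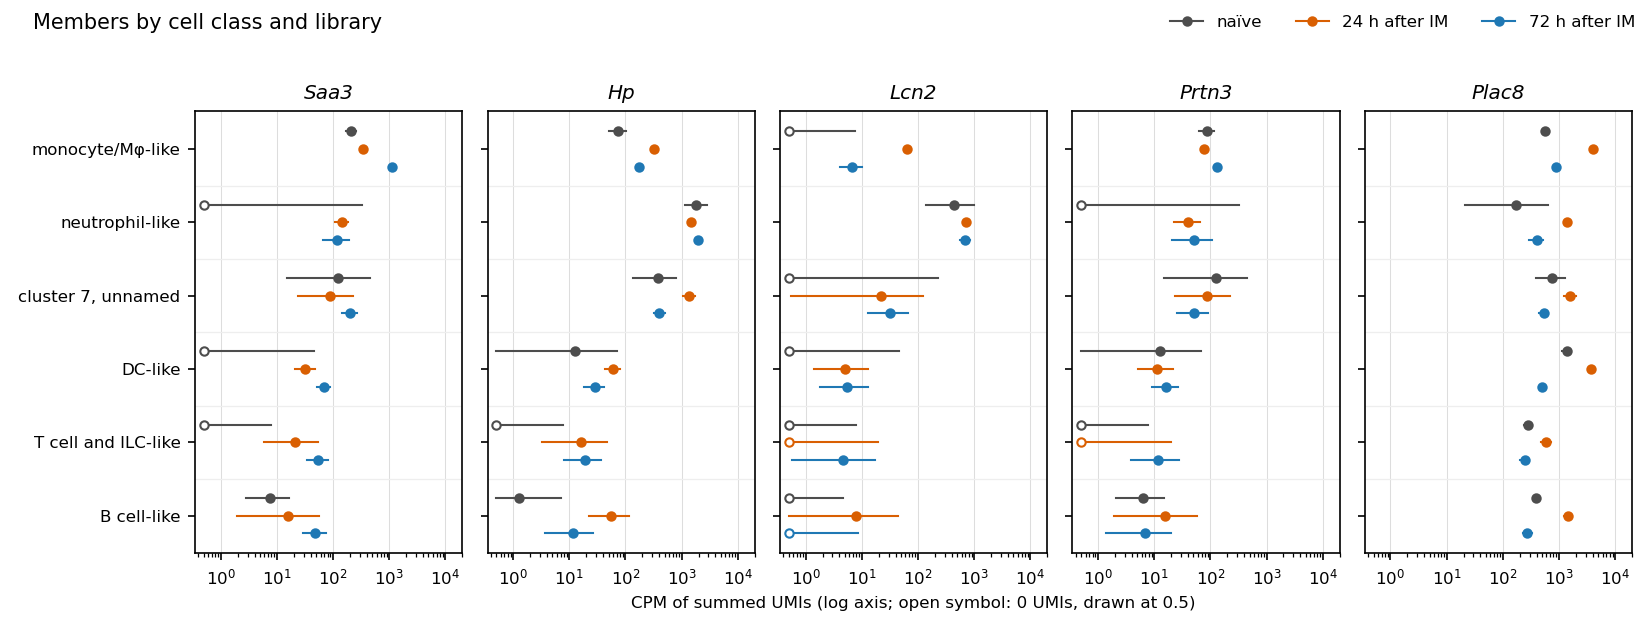
Level of each member by cell class and library, as CPM of summed UMIs on a log axis, with points for the 3 libraries, lines for the 95% Poisson interval (counting error only) and open symbols for 0 UMIs. Lcn2 stood highest in neutrophil-like cells, Hp stood highest there and, at 24 h, in the Ptgs2 and Siglecf cluster, Saa3 stood highest in monocyte/Mφ-like cells at 72 h (1138 CPM), and Plac8 was highest at 24 h in each of the 6 classes.

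Saa3 in monocyte/Mφ-like cells stood at 207 CPM in the naïve library (169 to 251), 343 CPM at 24 h (331 to 356) and 1138 CPM at 72 h (1101 to 1176). The level was 1.66-fold higher at 24 h than in the naïve library (1.36 to 2.04) and 3.31-fold higher at 72 h than at 24 h (3.16 to 3.48). Of the 2701 genes at 50 CPM or more at either time, 3.78% were at least 2-fold higher at 72 h, and among the members Saa3 alone was. Against the naïve library Saa3 at 72 h was 5.50-fold higher (4.52 to 6.77) and Hp 2.33-fold (1.66 to 3.37), where 2.27% of genes were at least 2-fold higher.

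Both differences turned on 1 Mφ state. With the Timp2+ cells left out, a comparison chosen after the values were seen, Saa3 stood at 22.8, 343 and 224 CPM in the naïve, 24 h and 72 h libraries, and the 72 h level was then 0.653 times that at 24 h (0.596 to 0.715), while the 24 h level was 15.1-fold that of the naïve library (8.19 to 31.5). A single naïve cell held 45 of the class's 102 Saa3 UMIs, and without it the naïve level was 117 CPM and the 24 h level 2.93-fold higher (2.26 to 3.88). The Timp2+ state counted 13, 3 and 128 cells in the 3 libraries. In bulk or in a whole class, more cells of a type and more RNA per cell give the same reading. Here the Timp2+ cells carried most of the Saa3 UMIs of the naïve and 72 h libraries, while the 3 Timp2+ cells at 24 h held 0.0628% of that library's.

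Outside the monocyte/Mφ class, Saa3 stood at 197 CPM or less. The highest of these levels was that of the Ptgs2 and Siglecf cluster, which read 124, 87.3 and 197 CPM (142 to 265 at 72 h) in the naïve, 24 h and 72 h libraries. In neutrophil-like cells Saa3 read 0, 142 and 118 CPM. The 24 h value was 0.414 times that of monocyte/Mφ-like cells (0.311 to 0.542), but a single neutrophil-like cell with 29 Saa3 UMIs among its 563 held 53.7% of the class's Saa3, and the level without it was 66.0 CPM. T cell and ILC-like cells read 0, 21.2 and 54.2 CPM and B cell-like cells 7.60, 15.8 and 48.0 CPM. When each cell was thinned to 500 UMIs, 0%, 0% and 3.8% of B cell-like cells and 0%, 0% and 1.47% of T cell and ILC-like cells had a Saa3 UMI, against 2.88%, 10.1% and 15.9% of monocyte/Mφ-like cells. Before thinning, 24.1% of the B cell-like and 43.8% of the monocyte/Mφ-like cells at 72 h had one, with median depths of 3272 and 5321 UMIs. The lymphocyte shares are taken as a background level, and the part of free RNA or doublets in them was not tested.

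Hp, the haemoglobin-binding acute phase protein, was highest in neutrophil-like cells, at 1825 CPM in the naïve library (1129.7 to 2789.7, from 12 cells), 1497 CPM at 24 h (1376 to 1625) and 1970.4 CPM at 72 h (1741 to 2221). The Ptgs2 and Siglecf cluster read 372, 1353 and 403 CPM, and at 24 h its level (1037 to 1734) was not apart from that of neutrophil-like cells (ratio 0.904, 0.684 to 1.18). In monocyte/Mφ-like cells Hp stood at 73.0, 324 and 170.5 CPM. The neutrophil level at 24 h was 4.62-fold that of monocyte/Mφ-like cells (4.22 to 5.06). Of 3033 genes compared there, 22.7% were at least 2-fold higher in neutrophil-like cells and 35.5% at least 2-fold lower, so both sizes were common. Hp and Lcn2 were among the former, and Saa3 and Plac8 (0.356, 0.326 to 0.388) among the latter. The Saa3 ratio was 0.154 under a stricter cell filter. At 500 UMIs per cell 38.2% of neutrophil-like cells at 24 h had a Hp UMI (49.7% at full depth, median 898 UMIs), as did 13.6% of monocyte/Mφ-like, 36.2% of the Ptgs2 and Siglecf cluster, 7.89% of B cell-like and 0% of T cell and ILC-like cells. Within monocyte/Mφ-like cells Hp was 4.43-fold higher at 24 h than in the naïve library (3.19 to 6.34), and it was 0.527 times as high at 72 h as at 24 h (0.479 to 0.578).

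Lcn2, the siderophore-binding lipocalin, was also highest in neutrophil-like cells. Its level there was 435 CPM in the naïve library, from 5 UMIs, 709 CPM at 24 h (627 to 799) and 686 CPM at 72 h (554 to 841), and the 2 levels after IM differed by less than their counting intervals (ratio 0.968, 0.756 to 1.23). Monocyte/Mφ-like cells held 0 Lcn2 UMIs in the naïve library, 576 at 24 h (63.9 CPM) and 21 at 72 h (6.74 CPM). Against a floor of 3 UMIs in the naïve class, or 6.09 CPM, the 24 h level was at least 10-fold higher, while the counting interval of the ratio itself began at 8.51, and the 72 h level was 0.106 times that at 24 h (0.0648 to 0.163). At 24 h the neutrophil level was 11.1-fold that of monocyte/Mφ-like cells (9.56 to 12.8). In T, B and DC-like cells Lcn2 reached at most 7.88 CPM. At 500 UMIs 17.9% of neutrophil-like cells at 24 h had a Lcn2 UMI (25.3% at full depth), against 0 of 71 T cell and ILC-like and 0 of 38 B cell-like cells, which, by the 3-count floor, allows up to 4.23% and 7.89% of such cells to have a UMI at this depth.

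Prtn3, the granule protease, was low in every class. Monocyte/Mφ-like cells read 87.2 CPM in the naïve library (63.1 to 117), 75.7 CPM at 24 h (70.1 to 81.5) and 131 CPM at 72 h (119 to 144), and neutrophil-like cells 0, 39.5 and 51.7 CPM. The 72 h level in monocyte/Mφ-like cells was 1.73-fold that at 24 h (1.53 to 1.96), but 1.14-fold without the Timp2+ cells (0.970 to 1.33). Without them the naïve level was 11.4 CPM, from 5 UMIs, and the 24 h level 75.7 CPM, 6.65-fold higher (2.83 to 20.5). Leaving these cells out was a choice made after the values were seen. Elane and Prss57, genes of the same primary granules and of the same stretch of chromosome 10, gave 6 UMIs together in 1547 monocyte/Mφ-like cells at 24 h (0.666 CPM) and 0 in that class in the naïve and 72 h libraries. The other 4 genes of the primary granule list were not analysed here.

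Plac8 was the most widely spread member. Monocyte/Mφ-like cells stood at 576 CPM in the naïve library (511 to 647), 3961 CPM at 24 h (3919.7 to 4002) and 891 CPM at 72 h (858 to 925). In the naïve library 4 cells held 198 of the class's 284 Plac8 UMIs. DC-like cells read 1382, 3681 and 489.7 CPM, and neutrophil-like cells 174, 1409.8 and 399 CPM. B cell-like cells read 395, 1450.5 and 274 CPM, and T cell and ILC-like cells 279.9, 589 and 245 CPM. Each class was highest at 24 h, and in each the 72 h level was lower than at 24 h by more than counting error. The ratio of 72 h to 24 h was 0.133 in DC-like cells (0.120 to 0.147), 0.189 in B cell-like, 0.225 in monocyte/Mφ-like, 0.283 in neutrophil-like (0.210 to 0.374), 0.336 in the Ptgs2 and Siglecf cluster (0.249 to 0.457) and 0.417 in T cell and ILC-like cells (0.316 to 0.549). At 500 UMIs 91.7% of Ly6c+ monocytes at 24 h had a Plac8 UMI, as did 28.9% of B cell-like and 25.4% of T cell and ILC-like cells, and the part of free RNA in the lymphocyte values was not tested.

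Among all genes, 3 of the 5 members (Hp, Lcn2 and Plac8) were at least 2-fold higher in monocyte/Mφ-like cells at 24 h than in the naïve library. That size was reached by 11.4% of the 2816 genes compared. Saa3 reached it too without its highest naïve cell, and both Saa3 and Prtn3 did without the Timp2+ cells. Lcn2 and Plac8 were at least 2-fold lower at 72 h than at 24 h, as were 4.78% of genes. In neutrophil-like cells Plac8 alone among the members was at least 2-fold lower at 72 h, as were 11.4% of 2589 genes. The rule that chose the members used these same contrasts, so the counts describe them only.

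Within the monocyte/Mφ class the levels of the members differed by state. The cells were divided by markers into Ly6c+ monocytes (5, 327 and 28 cells in the naïve, 24 h and 72 h libraries), Ccr2+ intermediate cells (6, 222 and 79), Arg1+ Mφs (0, 49 and 23), Fabp5+ Mφs (1, 409 and 4), Cd206+ Mφs (26, 3 and 248), Timp2+ Mφs (13, 3 and 128) and Cx3cr1+ Mφs (71, 1 and 20). A cluster led by Ltc4s, Klk8 and Tppp3 (subcluster 2; 2, 283 and 15 cells) stayed unnamed. So did 2 other groups, 1 of low depth and 1 with B cell genes, which are left out of the orders below. The Timp2+ cells met 5 of the 6 markers of their state and the Cd206+ cells 6 of 6, while the Ly6c+ cells met 4 of 7. Few states had enough cells in more than 1 library, so most contrasts were between states of the same library.

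**Figure D2:**
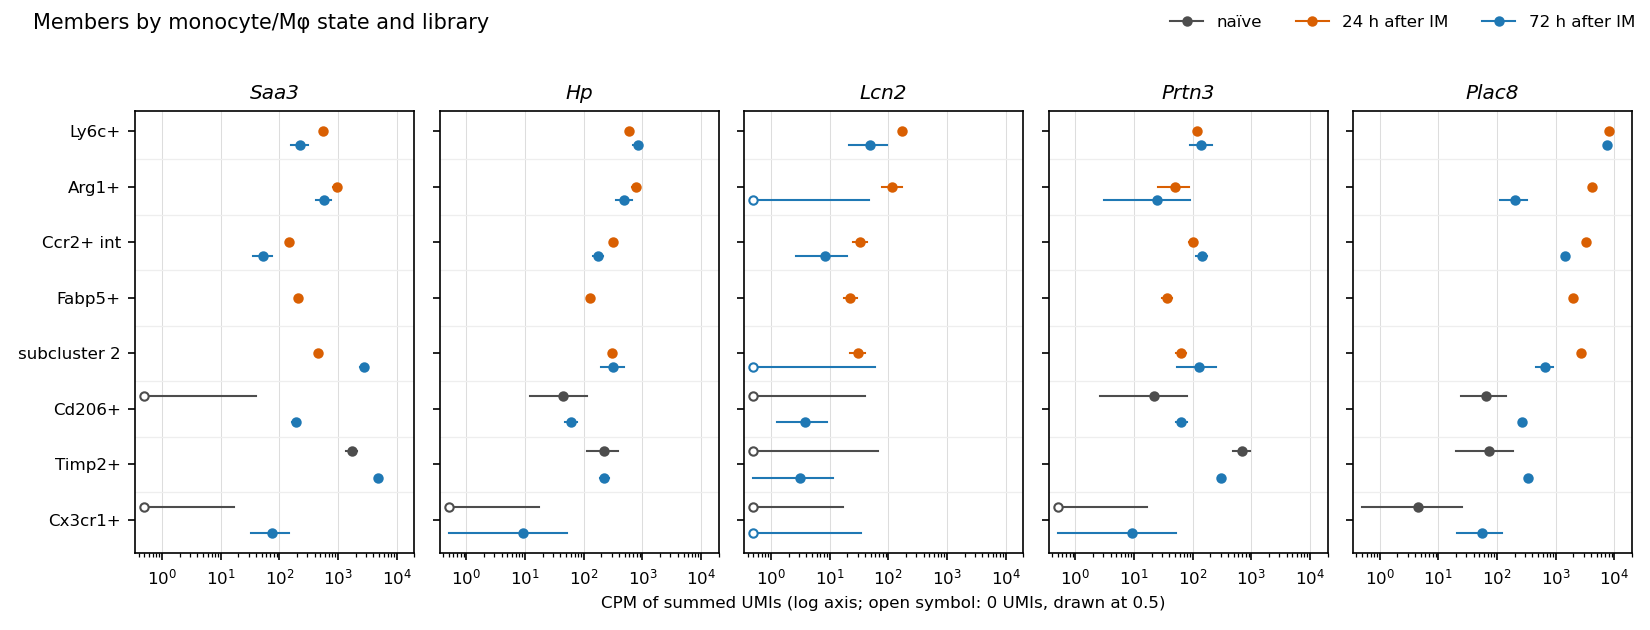
Level of each member by monocyte/Mφ state and library, as CPM of summed UMIs on a log axis, for states with at least 10 cells in a library, with 95% Poisson intervals (counting error only) and open symbols for 0 UMIs. Saa3 was highest in Timp2+ cells (4757 CPM at 72 h), Plac8 in Ly6c+ cells (8021 CPM at 24 h), and Cx3cr1+ cells of the naïve library had 1 UMI of Plac8 and 0 of the other members.

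Timp2+ Mφs held Saa3. Their level was 1702 CPM in the naïve library (1372 to 2087) and 4757 CPM at 72 h (4588 to 4930.3), and these cells, 1.99% and 10.3% of the libraries, held 83.6% and 80.5% of all Saa3 UMIs. In the naïve library 1 of the 13 cells held 48.9% of the group's Saa3, and the level without it was 992 CPM. At 72 h the highest cell held 11.2%, and the level without it was 4268 CPM. At 500 UMIs per cell 40.6% of the Timp2+ cells at 72 h had a Saa3 UMI (32.0 to 49.7), and 64.8% did at full depth.

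The order of Saa3 at 72 h after the Timp2+ cells was subcluster 2 (2748 CPM), Arg1+ (576), Ly6c+ (226), Cd206+ (188), Cx3cr1+ (74.7) and Ccr2+ intermediate cells (52.2). Among these groups, the intervals of Ly6c+ and Cd206+ cells overlapped, as did those of Cx3cr1+ and Ccr2+ intermediate cells. The Cx3cr1+ and Ccr2+ intermediate levels lay near those of DC-like (68.7), T cell and ILC-like (54.2) and B cell-like cells (48.0 CPM) at 72 h. The value of subcluster 2 rested on 15 cells, of which 1 held 61.3% of the UMIs, and was 1179 CPM without it. At 24 h, where Timp2+ cells were nearly absent, the order was Arg1+ (946), Ly6c+ (545), subcluster 2 (458), Fabp5+ (206) and Ccr2+ intermediate (146), each interval apart from the next. However, 1 of the 49 Arg1+ cells held 41.2% of that group's Saa3, and without it the level was 575 CPM (481 to 681), which overlaps that of Ly6c+ cells. In the naïve library, Cd206+ and Cx3cr1+ cells had 0 Saa3 UMIs, where, by the 3-count floor, 0 of 26 cells allows up to 11.5% and 0 of 71 cells up to 4.23% of cells to have a UMI at these depths (medians 3782 and 3048 UMIs).

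Prtn3 was highest in the same Timp2+ cells, at 703 CPM in the naïve library (497 to 965) and 309 CPM at 72 h (267 to 356). These cells held 74.5% and 43.2% of the libraries' Prtn3 UMIs. At 500 UMIs 14.1% of them at 72 h had a Prtn3 UMI (8.55 to 21.3), against 1.27% of B cell-like and 1.47% of T cell and ILC-like cells. Elsewhere Prtn3 read 121 and 140.4 CPM in Ly6c+ cells and 101 and 143 CPM in Ccr2+ intermediate cells at 24 h and 72 h, and 64.6 CPM in Cd206+ cells at 72 h. Elane was at 0 UMIs in the Timp2+ cells at 72 h, which allows up to 4.78 CPM.

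Between the 2 main Mφ states at 72 h, Timp2+ cells were higher than Cd206+ cells by 25.3-fold in Saa3 (22.2 to 29.0), 4.78-fold in Prtn3 (3.68 to 6.25) and 3.69-fold in Hp (2.79 to 4.93). Of 2742 genes, 10.8% were at least 2-fold higher in Timp2+ cells, among them these 3 of the 4 members that could be compared. Plac8 read 339 and 271 CPM, a ratio of 1.25 (1.05 to 1.49) that became 0.958 under a stricter cell filter. Lcn2 was under 4 CPM in both.

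**Figure D3:**
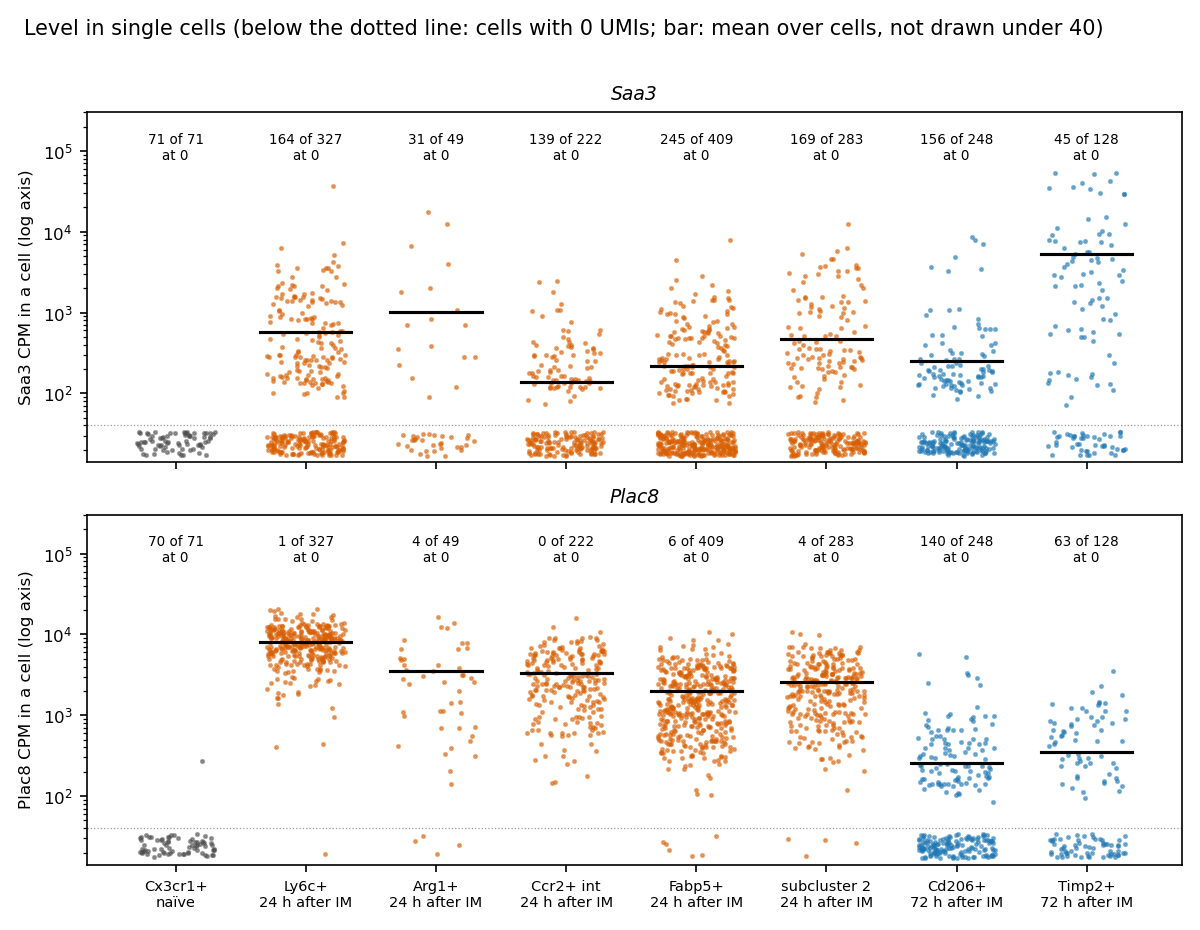
Saa3 and Plac8 CPM in each cell of 8 monocyte/Mφ groups on a log axis, with cells at 0 UMIs drawn below the dotted line, their number given above, and a bar for the mean over cells. Timp2+ cells at 72 h ranged from 0 to 53388 CPM of Saa3 with 45 of 128 cells at 0, while 1 of 327 Ly6c+ cells at 24 h was at 0 for Plac8.

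Saa3 was not evenly spread over the cells that had it. Among Timp2+ cells at 72 h the median cell stood at 541 CPM and the highest at 53388 CPM, with 45 of 128 cells at 0 and 56 cells at 1000 CPM or more. In the whole 72 h library 9 of the 381 cells with a Saa3 UMI held 50% of them, and 18 of the 20 highest cells were Timp2+. Plac8 at 24 h had the opposite spread. There, 304 of 1962 cells with a UMI held 50% of them, the 20 highest cells were all Ly6c+, and the median Ly6c+ cell stood at 7872 CPM.

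Ly6c+ monocytes held the highest Plac8, at 8021 CPM at 24 h (7903 to 8141) and 7460.3 CPM at 72 h (7048 to 7891), and 44.2% and 33.8% of the libraries' Plac8 UMIs. At 24 h the order of Plac8 ran from Ly6c+ through Arg1+ (4133), Ccr2+ intermediate (3259) and subcluster 2 (2705) to Fabp5+ cells (1961), with no overlap of neighbouring intervals. At 72 h it ran from Ly6c+ through Ccr2+ intermediate (1427), subcluster 2 (651), Timp2+ (339) and Cd206+ (271) to Arg1+ (200.3) and Cx3cr1+ cells (56). The intervals of subcluster 2 and Timp2+ did not overlap, while those of Timp2+ and Cd206+ did, as did those of Arg1+ with Cd206+ and with Cx3cr1+ cells. Without Ly6c+ cells, again a choice made after the values were seen, the class was still lower at 72 h than at 24 h (526 against 2669 CPM, ratio 0.197). Its naïve level was then 184 CPM, and the 24 h level was 14.5-fold higher (11.7 to 18.1), against 6.87-fold with these cells. Hp at 24 h was 6.11-fold the naïve level without Ly6c+ cells (3.85 to 10.3), of which 4 held 18 of the class's 36 naïve Hp UMIs.

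Hp and Lcn2 were also led by Ly6c+ and Arg1+ cells among the monocyte/Mφ states at 24 h. Hp was highest in Arg1+ cells (770.5 CPM), followed by Ly6c+ cells (600.0 CPM), then 315 in Ccr2+ intermediate, 307 in subcluster 2 and 129 in Fabp5+ cells, where the intervals of Ccr2+ intermediate cells and subcluster 2 overlapped. Without its highest cell Arg1+ stood at 656 CPM of Hp (556 to 769), which overlaps the interval of Ly6c+ cells (568 to 633). Lcn2 was led by Ly6c+ cells (174 CPM, 157 to 193) and Arg1+ cells (117 CPM, 77.9 to 169), with overlapping intervals, then 33.2, 30.2 and 22.7 CPM in the other 3. Ly6c+ cells were higher than Fabp5+ cells in all 5 members, by 7.67-fold in Lcn2 (5.89 to 10.1), 4.63-fold in Hp (4.13 to 5.21), 4.09-fold in Plac8 (3.97 to 4.22), 3.34-fold in Prtn3 (2.66 to 4.23) and 2.64-fold in Saa3 (2.39 to 2.92). Of 2727 genes, 6.67% were at least 2-fold higher in Ly6c+ cells.

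Neutrophil markers were measured beside these values because Hp and Lcn2 are also neutrophil transcripts. At 24 h the sum of the 7 markers was 1627 CPM for Ly6c+ monocytes, 1842 CPM for Arg1+ Mφs and 76470.0 CPM for neutrophil-like cells, so the first 2 stood at 2.13% and 2.41% of the neutrophil level. Retnlg, a neutrophil marker among them, stood at 0.537% and 1.63% of it. Lcn2 in the same cells stood at 24.6% and 16.5% of the neutrophil level and Hp at 40.1% and 51.5%. In B cell-like cells at 24 h the marker sum was 0.423% of the neutrophil level, with Lcn2 at 1.11%, from 1 UMI, and Hp at 3.69%. In T cell and ILC-like cells at 24 h it was 0.513%, with Lcn2 at 0% and Hp at 1.06%, from 3 UMIs. In each of these groups, lymphocytes included, Hp stood at a larger fraction of its neutrophil level than the marker sum did. Lcn2 did so in Ly6c+ and Arg1+ cells, while its lymphocyte values rested on at most 1 UMI. The part of neutrophil RNA in these values was not tested.

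The Ly6c+ state was made of different cells at the 2 times. A subcluster led by Cxcl10, Ifit3 and Rsad2, genes induced by interferon, had 294 cells at 24 h and 1 at 72 h, and subcluster 9 had 33 and 27. Within subcluster 9, Plac8 read 6729 and 7211 CPM (ratio 1.07, 0.986 to 1.16), Prtn3 133 and 147 CPM, Saa3 289 and 229.5 CPM (0.794, 0.50 to 1.25) and Hp 1036 and 803 CPM (0.775, 0.611 to 0.981). Lcn2 read 319 CPM at 24 h and 51.0 CPM at 72 h, a ratio of 0.160 (0.0656 to 0.338), and its 8 UMIs at 72 h came from 1 cell. Of 2985 genes, 7.54% were at least 2-fold lower at 72 h in subcluster 9, and of the members only Lcn2 was. Arg1+ cells also had both times (49 and 23 cells), and their mean over cells of Plac8 was 3486 CPM at 24 h and 247 CPM at 72 h. In Ccr2+ intermediate cells Plac8 was 0.438 times as high at 72 h as at 24 h (0.407 to 0.471). Saa3 was 0.359 times as high there (0.238 to 0.524), where 2.06% of 2618 genes were at least 2-fold lower. Its 72 h level, 52.2 CPM, was near that of T cell and ILC-like cells (54.2 CPM). The Plac8 and Saa3 ratios became 0.796 and 0.623 under a stricter cell filter. With likely doublets left out they were 0.778 and 0.714, so their size changed with the processing, and the cause was not tested.

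Pairs of members were then followed in the same cells, at 2000 UMIs per cell, a depth chosen after the data were seen. Among 98 Timp2+ cells at 72 h, Prtn3 was found in 48.2% of the 56 cells with Saa3 (34.7 to 62.0) and 9.52% of the 42 without (2.66 to 22.6). Hp was found in 42.9% (29.7 to 56.8) and 11.9% (3.98 to 25.6) of them, and Plac8 in 35.7% and 45.2%. At 500 UMIs Prtn3 was in 23.1% (12.5 to 36.8) and 7.89% (2.95 to 16.4) of the cells with and without Saa3, and the intervals overlapped. Hp was in 7.69% and 7.89%, near the limit of what that depth can show. At 2000 UMIs Prtn3 and Hp were thus more frequent in Timp2+ cells with Saa3 than in those without, whereas for Plac8 the intervals of the 2 groups overlapped.

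Ly6c+ cells at 24 h paired differently. Hp was found in 72.3% of the 65 cells with Lcn2 (59.8 to 82.7) and 54.1% of the 257 without (47.8 to 60.3), and Saa3 in 49.2% (36.6 to 61.9) and 28.8% (23.3 to 34.7). At 500 UMIs the pairs with Saa3 ran the other way, with Lcn2 in 1.79% of cells with Saa3 (0.0452 to 9.55) and 5.90% without (3.41 to 9.41) and Hp in 21.4% and 30.6%, all with overlapping intervals. At that depth Lcn2 was in 10.5% of cells with Hp (5.16 to 18.5) and 3.02% without (1.22 to 6.12), and these intervals overlapped as well. Prtn3 was found in 15.1% of cells with Saa3 and 13.4% without, and Plac8 in all 322 cells. In neutrophil-like cells at 24 h, at 500 UMIs, Hp was in 52.9% of 68 cells with Lcn2 (40.4 to 65.2) and 34.9% of 312 without (29.7 to 40.5).

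**Figure D4:**
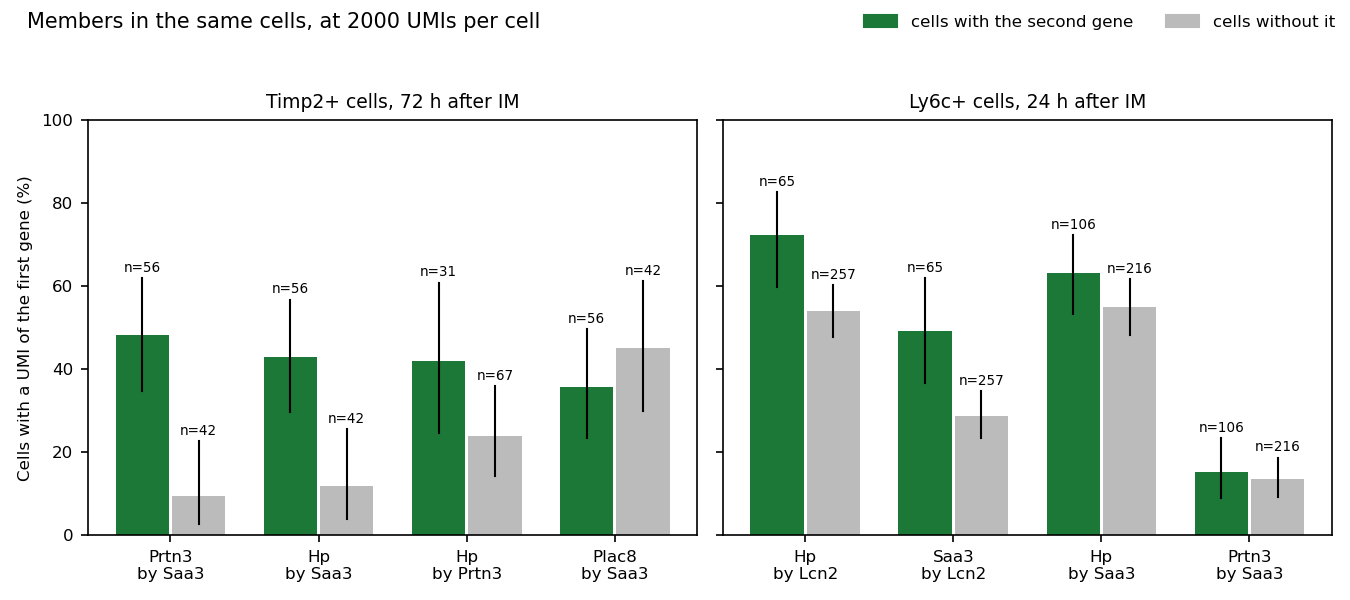
Share of cells with a UMI of 1 member among cells with (green) and without (grey) a second member, in percent, at 2000 UMIs per cell, with 95% Clopper-Pearson intervals and the number of cells above each bar. In Timp2+ cells at 72 h Prtn3 was found in 48.2% of cells with Saa3 and 9.52% without, whereas in Ly6c+ cells at 24 h it was found in 15.1% and 13.4%.

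The Timp2+ cells with and without Saa3 were compared over 2768 genes, a split chosen after the values were seen and made by the level of 1 gene, so the values are a description. Prtn3 stood at 505 CPM in cells with Saa3 and 125 CPM in cells without (ratio 4.04, 2.80 to 5.99), and Hp at 392 and 69.4 CPM (5.65, 3.50 to 9.58). Timp2 itself, an inhibitor of matrix metalloproteinases, read 751 and 718 CPM (ratio 1.05, 0.862 to 1.27), and the ratio of Ltc4s, the leukotriene C4 synthase, was 0.987 (0.879 to 1.11). At full depth 11 of the 42 cells without Saa3 had a Saa3 UMI. Gata6 and Prg4, also among its markers, were in 8 and 21 of the 56 cells with Saa3 and in 0 and 1 of the 42 without. The median depth was 5226 UMIs in cells with Saa3 and 6509 in cells without.

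Among the genes with large differences in the same direction as Saa3, a selection by known function, were Serpinb2, an inhibitor of plasminogen activators (236 and 0 CPM, in 22 and 0 cells), Cd5l (302 and 6.94 CPM), the whey acidic protein family member Wfdc21 (495 and 31.2 CPM), the 12/15-lipoxygenase Alox15 (103 and 0 CPM), the antimicrobial protease inhibitor Slpi (1179 and 153 CPM), the coagulation factor F5 (126 and 13.9 CPM), Selp (66.4 and 3.47 CPM) and Icam2 (239 and 34.7 CPM). Gata6, Prg4, Alox15, F5, Selp and Icam2 are known from resident macrophages of the peritoneal cavity. Cd74, the MHC class II invariant chain, was lower in the cells with Saa3 (2565 and 8353 CPM, ratio 0.307), as were P2ry6 (26.6 and 163 CPM) and Fcrls (23.3 and 121 CPM). Where these cells came from was not tested.

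**Figure D5:**
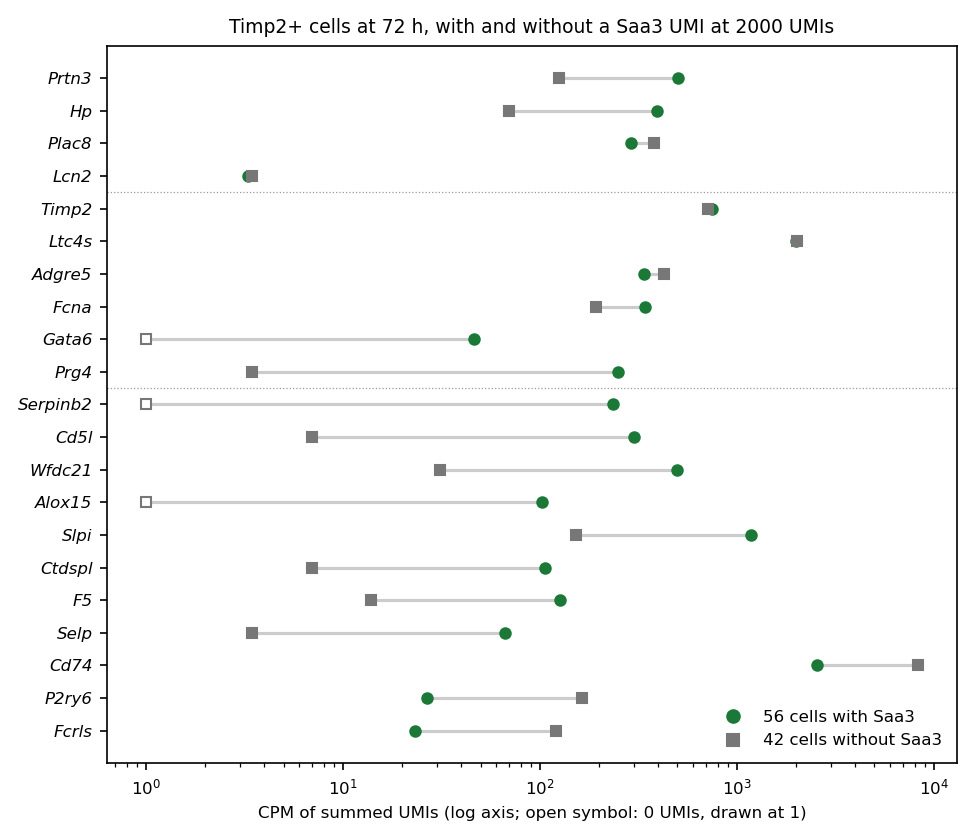
Levels in Timp2+ cells at 72 h with (green circles) and without (grey squares) a Saa3 UMI at 2000 UMIs per cell, as CPM of summed UMIs on a log axis, with members on top, state markers in the middle and genes picked for their difference below. Timp2 read 751 and 718 CPM, whereas Prtn3, Hp and Prg4 were higher in the cells with Saa3.

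Genes whose pattern over the 28 groups of at least 20 cells was most like that of each member were named by Pearson's r of log2(CPM + 10), among 5873 genes. The groups share 3 libraries and differ in depth, so r is a description. For Saa3 these were Nupr1 (0.825), Atp1b3 (0.816), F7 (0.815), Thbs1 (0.799) and Fn1 (0.786), of which all but Nupr1 were highest in Timp2+ cells at 72 h. For Prtn3 they were Emilin2 (0.846), Vill (0.817), Nupr1 (0.806), Thbs1 (0.794) and Rab31 (0.791), 2 of them shared with Saa3. For Hp they were Msrb1 (0.957), C3 (0.944), Rac1 (0.936), Cebpb (0.926) and Clec4e (0.925). For Lcn2 they were Mmp8 (0.932), Fpr1 (0.862), Acod1 (0.858), Retnlg (0.846) and Slpi (0.826), genes of neutrophils. For Plac8 they were Ly6c2 (0.867), Prelid1 (0.830), Vapa (0.822), Chil3 (0.782) and Ldha (0.776). Retnlg and Ly6c2 were also among the markers by which the groups were named. Between members r was 0.77 for Hp and Lcn2, 0.76 for Saa3 and Prtn3, 0.76 for Hp and Prtn3 and 0.38 for Saa3 and Lcn2.

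Related genes were counted in 8 lists. Of the 11 genes of secondary and tertiary granules, which include Lcn2 and Hp, 9 were measured and 6 reached 50 CPM in neutrophil-like or monocyte/Mφ-like cells at 24 h. Of these, 5 (Mmp8, Mmp9, Adam8, Lcn2 and Hp) were at least 2-fold higher in neutrophil-like cells and 1, the chitinase-like Chil3, was at least 2-fold lower. Mmp9 was a marker that named the neutrophil class, and Lcn2 and Hp were chosen by their levels, so the count is a description only. Over all 3033 genes compared, 22.7% were at least 2-fold higher and 35.5% at least 2-fold lower. The median log2 ratio of the 6 was 1.78, and -0.35 over all genes compared. Of 10 measured genes of other antimicrobial proteins 9 reached 50 CPM, of which 7 (Slpi, S100a8, S100a9, Wfdc17, Wfdc21, Pglyrp1 and Acod1) were higher and 2, lysozyme 2 (Lyz2) and the oxidase subunit Cybb, were lower. S100a8 and S100a9 were also markers that named the neutrophil class, so their direction was set by the naming. Of 8 measured inducers of the acute phase 4 reached 50 CPM, and these, Il1b, Tnf, Il1a and Osm, were all at least 2-fold higher in neutrophil-like cells, with Il1b at 11249 against 425 CPM. Of 18 measured receptors and signal genes 14 reached 50 CPM, of which 8 were higher, Cebpb among them (5007 against 1415 CPM), and 1, Cebpa, was lower. Of the partners that bind or act on the products, the formyl peptide receptors Fpr1 and Fpr2 were higher and the scavenger receptor Cd36 was lower, and of the acute phase list Steap4 was higher and Mt1 lower.

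In monocyte/Mφ-like cells at 24 h, the granule genes Chil3, Lcn2 and Hp were at least 2-fold higher than in the naïve library. So were the alarmins S100a8 and S100a9, and 11.4% of all genes compared. Mmp9 and Slpi were at least 2-fold lower, but the share of all genes lower by that size is not given here. The part of the naïve Timp2+ cells, high in Slpi (below), in the Slpi difference was not tested. C3, Osm, Myd88, Cebpb and Hmox1 were also higher, and Socs3, Nfkbiz and the haptoglobin-haemoglobin receptor Cd163 were lower (54.8 CPM in the naïve library and 6.10 CPM at 24 h for Cd163). At 72 h against 24 h, Chil3 and Lcn2 were at least 2-fold lower, as were Myd88 and Cd36, and Lyz1, Socs3 and Nfkbiz were higher, where 3.78% of all genes were higher and 4.78% lower by that size. S100a8 in monocyte/Mφ-like cells read 20.3, 665 and 429.9 CPM, and 37592 and 60063 CPM in neutrophil-like cells at 24 h and 72 h, and the part of neutrophil RNA in the former was not tested.

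Between Ly6c+ and Fabp5+ cells at 24 h, Chil3, Lcn2, Hp, C3, Slpi, S100a8, Wfdc21 and Cybb were at least 2-fold higher in Ly6c+ cells and Adam8, Mt1, Hmox1 and Cd36 at least 2-fold lower, while 0 of 2 inducers and 0 of 12 receptors and signal genes at 50 CPM or more passed that size. Of all genes compared, 6.67% were higher in Ly6c+ cells by that size, and the share lower is not given here. Between Timp2+ and Cd206+ cells at 72 h, 5 of the 9 other antimicrobial genes at 50 CPM or more were at least 2-fold higher in Timp2+ cells and 0 lower, against 10.8% of all genes higher. These were Slpi (683 against 29.2 CPM), Wfdc17 (7093 against 1559 CPM), Wfdc21 (271 against 6.15 CPM), Lyz1 (95.5 against 24.6 CPM) and Pglyrp1. Cebpb (1917 against 902 CPM) and Cd36 (124 against 26.2 CPM) were higher as well. Slpi in the 13 Timp2+ cells of the naïve library stood at 4181 CPM (3653 to 4763). The 2 genes of the Plac8 family list, Plac8l1 and Cnfn, were not analysed here.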

How the data were processed

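The authors aligned and counted the reads with Cell Ranger 3.0.2 on GRCm38 (mm10), per the submitters' notes, and deposited 1 table of UMI counts (whole numbers, not normalized) per library, already filtered, with no cell under 261 genes or over 9.91% mitochondrial UMIs. All sample columns were used (0 left out). From the counts, cells were clustered in Seurat 5.3.0 (R 4.3.3; 2000 variable genes, 30 principal components, or 20 within monocytes/Mφs, resolution 0.8), leaving out the members and pathway genes. A cluster was named where at least 3 markers, and more than of any other list, were found in 10% of its cells at 2-fold or more over the other cells, and, for clusters left over, over the named non-monocyte cells. A cluster led by markers of both granulocyte classes stayed unnamed. These rules were written after clusters were seen, and names may differ from the study's. Likely doublets were kept and removed in an alternative. Levels are CPM of summed UMIs with exact Poisson intervals. Ratios have exact conditional Poisson intervals and shares have Clopper-Pearson intervals (scipy 1.17.1). With 1 library per group no test of conditions was made. Genes were compared at 50 CPM or more in either group and counted at 2-fold. The interval code was tested on simulated data. The genes named are the 5 members, all genes of 8 pathway lists and the 5 most alike genes per member. Members and lists were chosen with earlier results of these data known. Alternatives were another cell filter, resolution, thinning depth, pseudocount, low-level filter and averaging.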

Additional observations from a re-analysis of the deposited data

Results flagged for a closer look

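Hp differed between 72 h and 24 h in opposite directions by cell class. The ratio of 72 h to 24 h was 1.32 in neutrophil-like cells, and 0.527 in monocyte/Mφ-like, 0.298 in the Ptgs2 and Siglecf cluster, 0.475 in DC-like and 0.207 in B cell-like cells, each with a counting interval that did not include 1. The B cell-like value rests on 7 UMIs at 24 h and 5 at 72 h, at a level taken as background, whose source was not tested. In T cell and ILC-like cells the ratio was 1.19 (0.285 to 6.94). The difference between classes was not tested, since each time point had 1 library.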

How the results depend on the processing

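Of 25 ratios recomputed under 6 other settings of the processing, 111 of 138 values stayed within the counting interval, 26 left it and 1 crossed 1. That was Plac8 in Timp2+ over Cd206+ cells, 0.958 under a stricter cell filter. The cause of the changes was not tested. In monocyte/Mφ-like cells, 72 h over 24 h, Saa3 was 2.80 (stricter filter), 2.92 (resolution 1.2), 3.96 (mean of cells) and, turning direction, 0.653 with Timp2+ cells left out, where Prtn3 was 1.14. At 24 h over naïve, Saa3 was 15.1 with Timp2+ cells left out and 2.93 without the highest naïve cell. Hp was 0.473 (resolution 1.2). Plac8 was 0.235, 0.204 and 0.207 under the first 3 settings, and 0.197 with Ly6c+ cells left out. For neutrophil-like over monocyte/Mφ-like cells, Saa3 was 0.154 (stricter) and 0.569 (mean of cells), Hp 4.21 (stricter), and Plac8 0.267 (stricter) and 0.401 (mean of cells). For Timp2+ over Cd206+ cells, Saa3 was 30.3 (stricter) and 20.9 (mean of cells). For Ly6c+ over Fabp5+ cells, Saa3 was 3.14 (resolution 0.5), Hp 4.08 (stricter) and 4.04 (resolution 0.5), and Plac8 3.25 (resolution 1.2). Within all Ly6c+ cells, Plac8 at 72 h over 24 h was 0.873 as a mean of cells. This ratio was not run under the stricter filter, at resolution 0.5 or without doublets, which left 1 or 2 cells at 72 h. In Ccr2+ intermediate cells, 72 h over 24 h, Saa3 was 0.623 (stricter), 0.555 (resolution 0.5) and 0.714 (doublets left out), and Plac8 0.796, 0.721 and 0.778, and 0.392 at resolution 1.2.

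Shares of cells moved with depth. Thinning to 1000 or 2000 UMIs kept only cells of at least that depth, so the cells counted changed as well. The median neutrophil-like cell at 24 h had 898 UMIs. Saa3 in Timp2+ cells was 64.8% without thinning. At 1000 UMIs and without thinning, Hp in neutrophil-like cells was 45.8% and 49.7%, Lcn2 28.5% and 25.3%, Prtn3 in Timp2+ cells 22.7% and 39.8%, and Plac8 in Ly6c+ cells 99.1% and 99.7%. At 2000 UMIs Prtn3 and Hp were in 48.2% and 42.9% of Timp2+ cells with Saa3, Prtn3 in 29.2% and 11.8% of monocyte/Mφ-like cells at 72 h with and without Saa3, and Lcn2 in 25.3% and 13.2% of Ly6c+ cells with and without Hp. At a pseudocount of 1 CPM, 3, 3, 1 and 2 of the 5 most alike genes of Saa3, Hp, Lcn2 and Prtn3 remained. With a filter at 10 CPM, genes at least 2-fold higher and lower in monocyte/Mφ-like cells numbered 815 and 1057 (24 h over naïve), 365 and 237 (72 h over 24 h), and 459 and 591 (72 h over naïve). No paired analysis was possible because each time point had 1 library, which also leaves no replicate to omit.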
